A study of Mus musculus with 9 samples.

Results

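Tfrc encodes the transferrin receptor, the main door for iron into most cells, and Slc40a1 encodes ferroportin, the cell's iron exporter. These 2 genes were taken by gene name, of 720 genes in either of the authors' deposited tables: Slc40a1 from the table of MGH-CP1 against vehicle (471 genes) and Tfrc from the table of dinaciclib against vehicle (251 genes). Each was compared with vehicle for 1 compound only. Tfrc with MGH-CP1 and Slc40a1 with dinaciclib were not analysed here.

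RNA was sequenced from EHE17, a mouse tumour cell line labelled endothelial with the genotype TC+/+ Cdkn2a -/-, which all groups share, the vehicle controls included. The labels leave TC unexplained; it may stand for TAZ-CAMTA1, the gene fusion of epithelioid hemangioendothelioma. The groups were DMSO vehicle, 10 µM MGH-CP1 for 16 h and 300 nM dinaciclib for 16 h, with 3 biological replicates each. MGH-CP1 blocks the palmitoylation of TEAD transcription factors, and dinaciclib inhibits cyclin-dependent kinases, among them those that drive transcription. The cultures are of a single line, so the values describe that line.

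The transferrin receptor binds iron-loaded transferrin at the cell surface, is carried inward in clathrin-coated vesicles, releases the iron in the endosome and returns to the surface. Ferroportin moves ferrous iron out across the plasma membrane and is removed from it when hepcidin binds. Both messages are read by the iron-regulatory proteins IRP1 and IRP2, which bind a short hairpin, the iron-responsive element. When iron is scarce, binding to elements behind the Tfrc coding region protects that message from decay, and binding to the element ahead of the Slc40a1 coding region blocks its translation.

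The hairpins are shown because they are the sequence feature that the import and export genes have in common and because their places in the messages differ. A search of the principal GENCODE M21 transcripts on GRCm38 found 1 match in the 5′ UTR of Slc40a1 and 4 in the 3′ UTR of Tfrc. The pattern was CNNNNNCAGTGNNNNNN on the transcript strand, with all 5 stem positions paired across the loop (A with T, G with C or G with T). Each is given 5′ to 3′ as DNA with 6 bases on either side, and capitals mark the loop of 6 bases.
Slc40a1 5′ UTR, chr1:45925465-45925493, minus strand: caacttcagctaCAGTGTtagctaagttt
Tfrc 3′ UTR, chr16:32631219-32631247, plus strand: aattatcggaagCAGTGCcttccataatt
Tfrc 3′ UTR, chr16:32631598-32631626, plus strand: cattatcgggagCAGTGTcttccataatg
Tfrc 3′ UTR, chr16:32631663-32631691, plus strand: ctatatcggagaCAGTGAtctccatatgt
Tfrc 3′ UTR, chr16:32631710-32631738, plus strand: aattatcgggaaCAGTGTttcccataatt

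The pattern itself sets the bulged c and a loop that begins CAGTG, so every match has both. The 4 Tfrc matches also share a stem that opens with g, which the pattern does not set. The match in Slc40a1 has the same loop as the second and the fourth Tfrc match and a different stem. Such a match stood in the 5′ UTR of 21 of 20234 genes (0.104%) and in the 3′ UTR of 116 of 20756 genes (0.559%). On the reverse complement of the same UTRs the shares were 0.0692% and 0.385%. A match is a description of the letters and was not tied to any change in level.

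**Figure D1:**
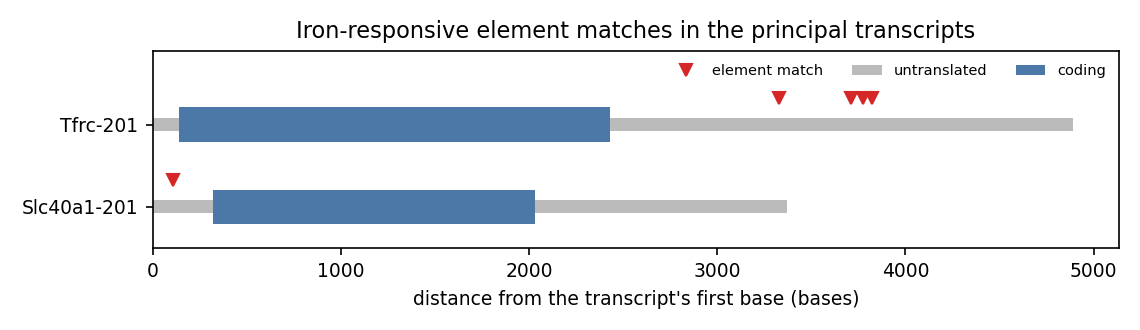
Principal transcripts of Slc40a1 and Tfrc drawn to scale, with the distance from the first base of the transcript in bases on the x axis; thick bars are coding, thin bars untranslated, and triangles mark pattern matches. The single Slc40a1 match lies ahead of the coding region of a transcript of 3370 bases, and the 4 Tfrc matches lie behind the coding region of a transcript of 4890 bases.

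Slc40a1 (ENSMUSG00000025993) spans chr1:45908068-45926523 on the minus strand, and Tfrc (ENSMUSG00000022797) spans chr16:32608920-32632794 on the plus strand. No other gene of that annotation overlaps either span, which matters because the libraries carry no strand mark. The Slc40a1 transcript has 8 exons, with a 5′ UTR of 319 bases and a 3′ UTR of 1338 bases. The Tfrc transcript has 19 exons, with a 5′ UTR of 140 bases and a 3′ UTR of 2458 bases.

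Library totals were 31852117 to 40020833 counts in vehicle, 19934012 to 24310817 with MGH-CP1 and 2541162 to 3316779 with dinaciclib, a mean 12.2 times below vehicle. The tables are not whole transcriptomes: they hold only genes with an absolute log2 fold change of 1.00 or more and an adjusted p below 0.05 in the authors' own comparison of these libraries, and all 251 genes of the dinaciclib table are annotated there with a tumour type. Absence from a table therefore says nothing of a gene, and a call below is no independent evidence of change. Of the endothelial marker list, 4 of 20 genes (Kdr, Notch1, Gata2 and Fli1) were in the dinaciclib table and 1 (Vwf) in the MGH-CP1 table, and in vehicle Kdr stood at 90.3 FPKM and Vwf at 0.149 FPKM. Values below compare shares of each library. In bulk samples fewer cells of a type and less RNA per cell cannot be told apart.

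In vehicle cells the exporter message was the more abundant of the pair per length. FPKM, the authors' read count scaled by gene length and library total, was 7.17, 7.37 and 7.29 for Slc40a1 in the 3 vehicle libraries. Tfrc stood at 3.36, 4.10 and 4.15 FPKM in the same libraries. The highest Tfrc value lay below the lowest Slc40a1 value, and the lowest of the 6 belonged to Tfrc in vehicle replicate 1. Within a library the ratio of Tfrc to Slc40a1 FPKM was 0.469, 0.557 and 0.570, with a mean of 0.532 ± 0.0550 (SD, n = 3).

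The size of that ratio depends on the length by which counts are divided, while its direction did not change. The authors' gene length is 9000 bases for Slc40a1 and 6185 bases for Tfrc, against principal transcripts of 3370 and 4890 bases. Per base of the principal transcript, an alternative chosen after the data were seen, the mean ratio was 0.252 ± 0.0261 (SD, n = 3). With no length correction it was 0.366 ± 0.0378 (SD, n = 3).

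Slc40a1 held nearly the same share of each vehicle library and Tfrc did not. The coefficient of variation of the normalised count, that is, the count divided by the authors' size factor for the library, was 1.29% for Slc40a1 over the vehicle libraries. Only 2 of the 355 genes tested in the MGH-CP1 table had a lower value, and the median was 18.3%. For Tfrc it was 11.3%, above that of 235 of the 248 genes tested in the dinaciclib table, where the median was 3.37%. Relative spread grows as counts fall. Slc40a1 stood at a vehicle mean of 1834 beside a median of 41.7 over the tested genes of its table, and Tfrc at 247 beside 538. The ranks may therefore follow level in part, which was not tested, and the 2 medians are not like backgrounds. Size factors were set in each table on its own, so normalised counts are not compared across the tables.

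With MGH-CP1 the ferroportin message doubled in share. Slc40a1 stood at 1812, 1859 and 1831 normalised counts in vehicle and at 3426, 3910 and 3792 with MGH-CP1. Every MGH-CP1 library lay above every vehicle library, and the lowest treated value was 1.84 times the highest vehicle value. The groups did not overlap in 350 of the 355 tested genes of that table (98.6%), so the separation does not set Slc40a1 apart. Group means were 1834 ± 23.7 and 3709 ± 252 (SD, n = 3). On the FPKM scale the treated libraries stood at 13.5, 15.4 and 15.0, with a mean of 14.6 ± 0.999 against 7.27 ± 0.101 in vehicle (SD, n = 3).

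The raw counts behind these levels were 2054, 2264 and 2624 in vehicle and 2957, 2768 and 3190 with MGH-CP1. Slc40a1 counts were therefore higher in the smaller MGH-CP1 libraries than in the larger vehicle libraries, without overlap. The log2 change was 1.02 with SE 0.150, a 2.02-fold rise with a 95% interval of 1.61 to 2.55. The adjusted p was 1.61e-04 from edgeR's quasi-likelihood test, adjusted by Benjamini-Hochberg over the 355 genes tested. Among those genes 100% were called, 49.3% higher and 50.7% lower, so the call itself does not set Slc40a1 apart from the other listed genes.

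Slc40a1 was among the smallest rises in its table. Of the 175 genes called higher, 8 had a smaller log2 change, and the median rise was 1.48 on the log2 scale. By vehicle normalised count it was number 14 of the 355 tested genes, and by vehicle FPKM, which corrects for length, number 55. In the authors' deposited table its log2 fold change of 1.02 was the seventh smallest of 270 rises, close to the listing limit, where the smallest absolute value was 1.00. By p-value in the same authors' deposited table it was number 6 of 471 genes (adjusted p 1.84e-66 in the authors' own comparison). In the edgeR fit, which had only the picked genes to estimate the spread, it was number 85 of 355 by p.

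The genes whose profile over the 6 libraries was closest to that of Slc40a1 were taken by the smallest root mean square difference in log2 normalised count relative to the vehicle mean, among 111 candidate genes. A change close to that of Slc40a1 is therefore fixed by the choice. Zbtb20, which encodes a zinc finger transcription repressor, was closest at 0.0677, with 3780 ± 300.2 normalised counts against 1798 ± 73.6 in vehicle (SD, n = 3). Tmem245, which encodes a membrane protein, differed by 0.0858, and the netrin receptor gene Neo1, also known for binding hemojuvelin in hepcidin control, by 0.0989. The oestrogen receptor gene Esr1 followed at 0.121 and Odc1, the rate-limiting enzyme gene of polyamine synthesis, at 0.128. Their log2 changes ran from 1.00 to 1.11, beside 1.02 for Slc40a1, and Neo1 was also the next gene below it in order of log2 change.

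Levels per length differed widely among these genes. In vehicle they stood at 2.09 FPKM for Zbtb20, 3.96 for Tmem245, 4.90 for Neo1, 0.177 for Esr1 and 102 for Odc1, so that Slc40a1 at 7.27 FPKM lay inside their range. In order of vehicle FPKM among the tested genes, Nutf2-ps1 stood next above Slc40a1 at 7.34 ± 4.20 (SD, n = 3). The poly(A) binding protein gene Pabpn1 stood next below at 7.18 ± 0.375 (SD, n = 3). Their closeness to Slc40a1, within their own spread, is fixed by that choice.

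With dinaciclib the transferrin receptor message rose by more than an order of magnitude in share. Tfrc stood at 215, 262 and 265 normalised counts in vehicle and at 7789, 8140 and 9536 with dinaciclib. The lowest dinaciclib library was 29.4 times the highest vehicle library, and the highest was 1.22 times the lowest within the dinaciclib group. The groups did not overlap in 247 of the 248 tested genes of that table (99.6%), so the separation does not set Tfrc apart. Group means were 247 ± 27.9 and 8488 ± 924 (SD, n = 3). On the FPKM scale the treated libraries stood at 134, 139 and 164, with a mean of 146 ± 16.3 against 3.87 ± 0.444 in vehicle (SD, n = 3).

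The rise was visible in the raw counts although the dinaciclib libraries were far smaller. Tfrc had 662, 867 and 1028 counts in the vehicle libraries and 2106, 2853 and 2911 counts in the dinaciclib libraries. The smallest dinaciclib count was 2.05 times the largest vehicle count. As CPM, the count scaled to equal library totals, these are 20.8, 25.4 and 25.7 in vehicle and 829, 860.2 and 1017 with dinaciclib. The share is relative to the rest of each library, and the absolute amount of Tfrc message per cell was not tested.

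The log2 change of Tfrc was 5.10 with SE 0.131, a 34.3-fold rise with a 95% interval of 27.8 to 42.3. The adjusted p was 1.55e-08 from edgeR's quasi-likelihood test, adjusted by Benjamini-Hochberg over the 248 genes tested. All tested genes of that table were called (100%), 25% higher and 75% lower. The median log2 change of all 248 was -1.83, and that of the 62 genes called higher was 2.22. Tfrc was number 3 of those 62 by log2 change, after Fstl3 and Cox6c.

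With TMM factors over the listed genes, which take most listed genes as unchanged, the log2 change of Tfrc was 6.74, or 3.12 times the fold given above, and the median of the table moved by 1.61. Relative to the table's median, Tfrc stood 6.93 higher with the authors' size factors, 6.96 higher with TMM and 6.93 higher with total counts as library sizes. Under TMM 166 of 247 tested genes were called, 70 higher and 96 lower, in place of 62 higher and 186 lower of 248, so that 42.2% of the calls were higher in place of 25%. With vehicle counts thinned to the dinaciclib depth, which left 67, 69 and 89 Tfrc counts, the log2 change was 4.99.

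**Figure D2:**
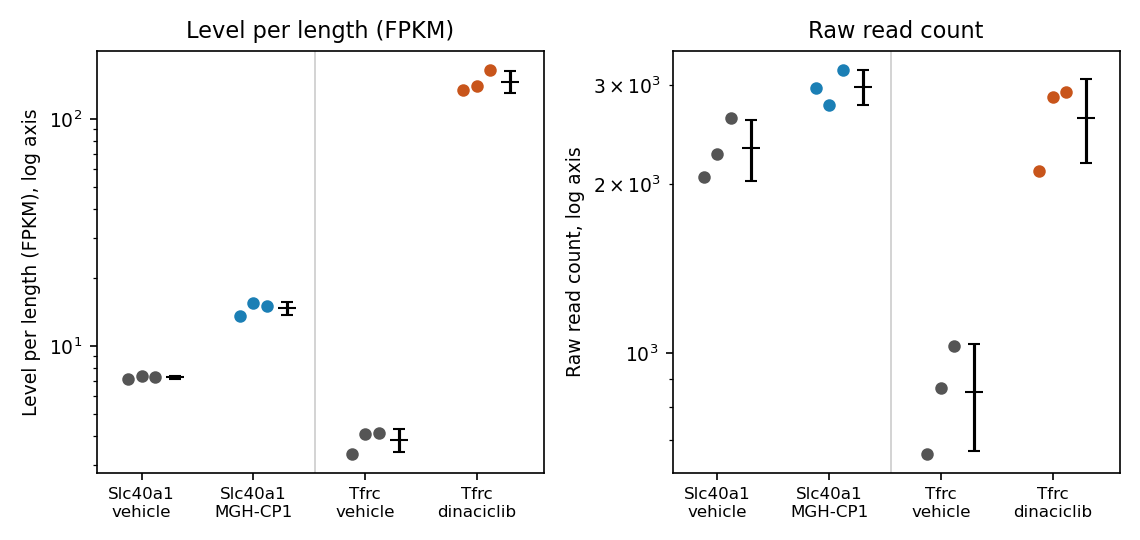
Each point is 1 library, with FPKM on the left and the raw read count on the right, both on log axes; black marks give the mean ± SD of 3 libraries per group. Treated and vehicle libraries do not overlap for either gene on either scale, and Tfrc moves from 3.36 to 4.15 FPKM in vehicle to 134 to 164 FPKM with dinaciclib. In normalised count the groups also do not overlap in 98.6% of tested MGH-CP1 genes and 99.6% of tested dinaciclib genes.

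**Figure D3:**
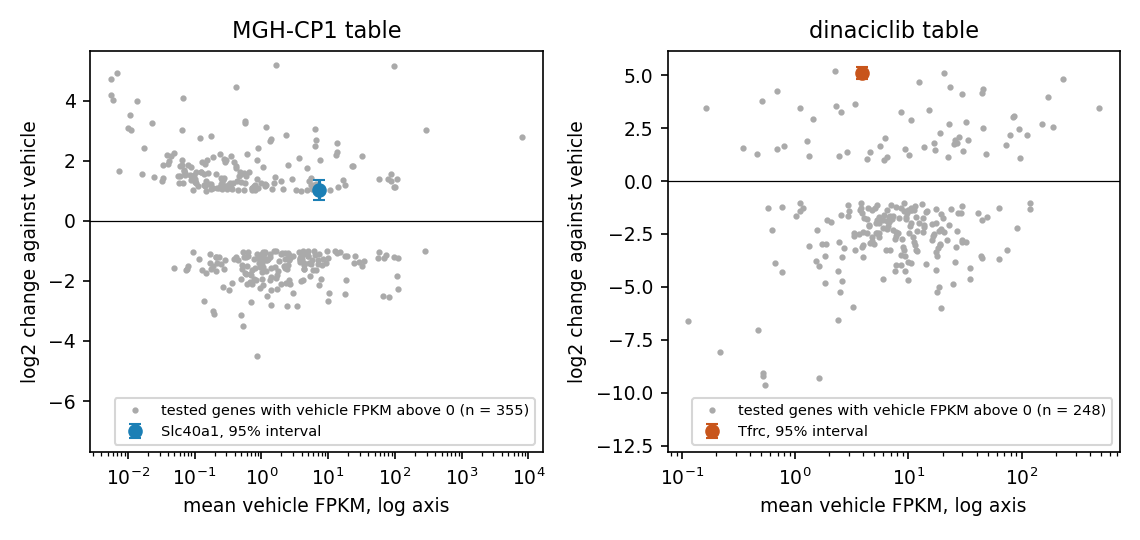
Log2 change against vehicle on the y axis and mean vehicle FPKM on a log x axis for the tested genes of each table; grey points are genes, and the coloured point with its 95% interval is Slc40a1 (left) or Tfrc (right). Slc40a1 lies at the edge of the empty band that the listing limit leaves around 0, and Tfrc lies near the top of its table.

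In order of FPKM the measured levels were Tfrc in vehicle, Slc40a1 in vehicle, Slc40a1 with MGH-CP1 and Tfrc with dinaciclib, and no neighbouring groups in that order overlapped. By vehicle FPKM, Tfrc was number 186 of 248 genes tested in its table. It stood between Creb3l1 at 3.89 ± 0.356 and Fbxw7 at 3.84 ± 0.166 (SD, n = 3). Such closeness, within the spread, is fixed by the order. With dinaciclib Tfrc was number 23 of the 248 by FPKM. The 2 comparisons share the 3 vehicle libraries, and the compounds differ in dose, so the rises of the 2 genes stand side by side and are not compared.

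The genes most like Tfrc by the same measure, among the 123 candidates, are steep rises by that choice. Cox6c, which encodes a subunit of cytochrome oxidase, differed by 0.129, with 759 ± 24.6 normalised counts in vehicle and 26437 ± 2961 with dinaciclib (SD, n = 3). Fstl3, which encodes a secreted activin-binding protein, differed by 0.229, and Calr, which encodes the calcium-binding chaperone calreticulin of the endoplasmic reticulum, by 0.258. Hmga1b, of an architectural chromatin protein family whose reads may partly belong to its near-copy Hmga1, followed at 0.337, and Ext2, of heparan sulfate synthesis, at 0.498. Their log2 changes were 5.12 for Cox6c, 5.21 for Fstl3, 4.83 for Calr, 4.66 for Hmga1b and 4.44 for Ext2. Tfrc at 3.87 FPKM and Fstl3 at 2.25 FPKM were the lowest of the 6 in vehicle, and Calr at 234 FPKM was the highest.

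Few other genes of iron handling were in the tables, and nothing is said here of genes outside them. Of 28 genes for iron transport, Slc40a1 was the 1 gene in the MGH-CP1 table and Tfrc the 1 gene in the dinaciclib table, both higher. Of 10 transcripts known for an iron-responsive element, the same genes were listed, 1 in each table. Of the lists for iron storage and the iron-regulatory proteins (10 genes), heme (22), iron-sulfur cluster assembly (30) and other metals (12), 0 were in either table, so ferritin, heme oxygenase and IRP levels were not analysed here.

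Sdhc and Sdhd, of the proteins that use iron in respiration or their partner subunits, were higher with dinaciclib. They were the 2 of 17 genes on that list in the table, where 25% of tested genes were higher, and their median log2 change was 1.54 beside -1.83 over all tested genes. Both encode the membrane anchor of succinate dehydrogenase, which holds its heme. Sdhc stood at 912, 876 and 908 normalised counts in vehicle and at 3133, 2987 and 3276 with dinaciclib, a log2 change of 1.80 with SE 0.0785. Sdhd stood at 614 ± 26.0 in vehicle and 1500.1 ± 25.8 with dinaciclib (SD, n = 3), a log2 change of 1.29. In both genes the groups did not overlap, as in 99.6% of the tested genes of that table.

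From the list for the receptor's uptake route a single gene was in the dinaciclib table. It was lower, as were 75% of the tested genes of that table. Of 32 genes for clathrin endocytosis and recycling of the receptor, 1 was in the dinaciclib table, Cltc, which encodes the clathrin heavy chain. It stood at 6888, 6314 and 6249 normalised counts in vehicle and at 658, 770 and 619 with dinaciclib. The groups did not overlap, as in 99.6% of the tested genes of that table. The log2 change was -3.24 with SE 0.104 (adjusted p 2.90e-08 in the same edgeR fit as Tfrc). In the same libraries the Tfrc count was higher than the Cltc count with dinaciclib and lower in vehicle, a comparison of counts with no length correction. Per length, Cltc stood at 73.9 FPKM in vehicle and 8.53 with dinaciclib, and Tfrc at 3.87 and 146.

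Among 19 transcription factor genes known to act on Tfrc or Slc40a1, or partners of such factors, 4 were in the dinaciclib table and 4 fell, in a table where 75% of tested genes were lower. With TMM factors 2 of the 4, Nfe2l2 and Max, were still called lower. The median log2 change of the 4 was -2.50 beside -1.83 over all tested genes. Nfe2l2 encodes NRF2, an activator of Slc40a1 and of ferritin genes, and stood at 1815, 1716 and 1724 normalised counts in vehicle against 118, 177 and 118 with dinaciclib. Max encodes the partner of MYC, a known activator of Tfrc, and stood at 534 ± 18.9 in vehicle against 18.5, 25.7 and 62.2 in the dinaciclib libraries, a log2 change of -3.90, or -4.56 without dinaciclib replicate 3. Arnt encodes the shared subunit of the hypoxia-inducible factors, which also activate Tfrc, and stood at 713 ± 9.39 against 298 ± 30.5 (SD, n = 3). Stat5b encodes a cytokine-activated factor and stood at 602 ± 17.6 against 235 ± 80.0 (SD, n = 3). The log2 changes of Arnt and Stat5b were -1.26 and -1.35 and turned to 0.37 and 0.26 with TMM factors, where neither passed the test. Of the 19, 0 were in the MGH-CP1 table.

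From the list for bone morphogenetic protein signalling and oxygen sensing, 2 of 18 genes were in the dinaciclib table and both fell. Vhl, which encodes the ubiquitin ligase subunit that marks hypoxia-inducible factors for destruction, stood at 261, 278 and 267 normalised counts in vehicle and at 37.0, 28.5 and 6.55 with dinaciclib. Smad4, which encodes the common mediator of the signal to hepcidin, stood at 1030 ± 65.7 against 199 ± 81.9 (SD, n = 3). Their log2 changes were -3.49 and -2.37. With 75% of the tested genes of the table lower, falls in these lists are near the background of the table.

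**Figure D4:**
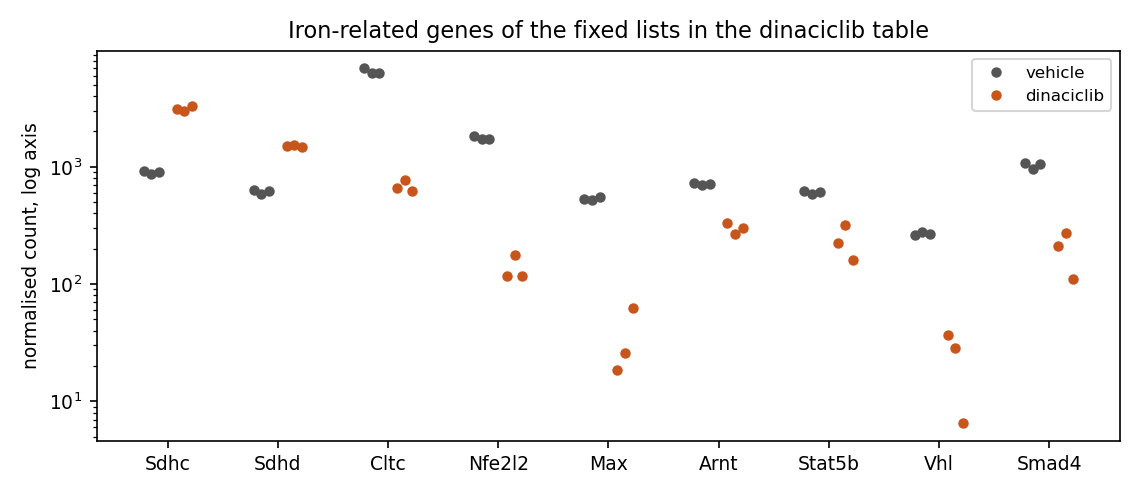
Normalised counts on a log axis for the iron-related genes of the lists in the dinaciclib table, with 3 vehicle libraries in grey and 3 dinaciclib libraries in orange per gene. Tfrc and the genes of the lists added after the fits are not drawn. Sdhc and Sdhd are higher with dinaciclib and the other 7 genes are lower. Groups do not overlap for any of them, as for 99.6% of the tested genes of that table. Of those tested genes 25% were higher and 75% lower. With TMM factors the log2 changes of Arnt and Stat5b turned to 0.37 and 0.26.

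With MGH-CP1, 1 of 19 NRF2 targets and 1 of 23 genes on the ferroptosis list were in the table, in both cases Slc7a11, which encodes the cystine importer for glutathione synthesis. Slc7a11 stood at 283, 333 and 403 normalised counts in vehicle and at 786, 1233 and 683 with MGH-CP1, a log2 change of 1.40 with SE 0.226. The groups did not overlap, as in 98.6% of the tested genes of that table. Replicate 2 was the highest MGH-CP1 library for both Slc7a11 and Slc40a1. The lowest was replicate 3 for Slc7a11 and replicate 1 for Slc40a1, so the order of the libraries was not shared. Of protein-coding genes with a symbol that starts with Slc, 7 were in the MGH-CP1 table, 4 higher and 3 lower. That split is near the background of the table, where 49.3% of tested genes were higher and 50.7% lower. The other rises were in the cationic amino acid transporter gene Slc7a2 (log2 change 1.20) and Slco5a1 (1.58), and the falls were in Slc24a1 (-1.29), Slc35f2 (-3.09) and the prostaglandin transporter gene Slco2a1 (-1.04). Slc40a1 was the most abundant of the 7 in vehicle, at 7.27 FPKM beside 0.0952 to 0.871 for the others. In the dinaciclib table, where 75% of tested genes were lower, the 1 such gene was Slc45a3. It was lower at a log2 change of -1.73 but did not pass the test with TMM factors (-0.09).

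Markers of cell types known for ferroportin or for the transferrin receptor were few in the tables. Macrophages recycle iron through ferroportin, and 2 of 16 macrophage markers were in the MGH-CP1 table, Cd68 at 54.8 ± 17.6 normalised counts against 12.2 ± 5.08 in vehicle and Lyz2 at 92.8 ± 25.7 against 187 ± 16.9 (SD, n = 3). Their summed level was 138 to 154 with MGH-CP1 and 189 to 213 in vehicle, a sum that mostly holds the more abundant Lyz2. The 2 markers went opposite ways, Cd68 higher (log2 change 2.17) like Slc40a1 and Lyz2 lower (-1.02), and neither was at 0 in any library. The part of other cell types in the Slc40a1 rise was not tested. Of 12 erythroid markers and 10 fibroblast and mural markers, 0 were in either table. Of 14 proliferation markers 1 was in the dinaciclib table, Bub1b, lower at a log2 change of -1.48 and at 0.17 with TMM factors, where it did not pass. The 4 endothelial markers of the dinaciclib table summed to 12680 to 13116 normalised counts in vehicle and 2431 to 2722 with dinaciclib. Kdr made up most of that sum, at a vehicle mean of 8417. All 4 were lower, as Bub1b was, in a table where 75% of tested genes were lower. With TMM factors the log2 changes were -0.59 for Kdr, -0.68 for Notch1, -1.63 for Gata2 and -1.30 for Fli1. The part of these markers in the Tfrc rise was not tested.

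**Figure D5:**
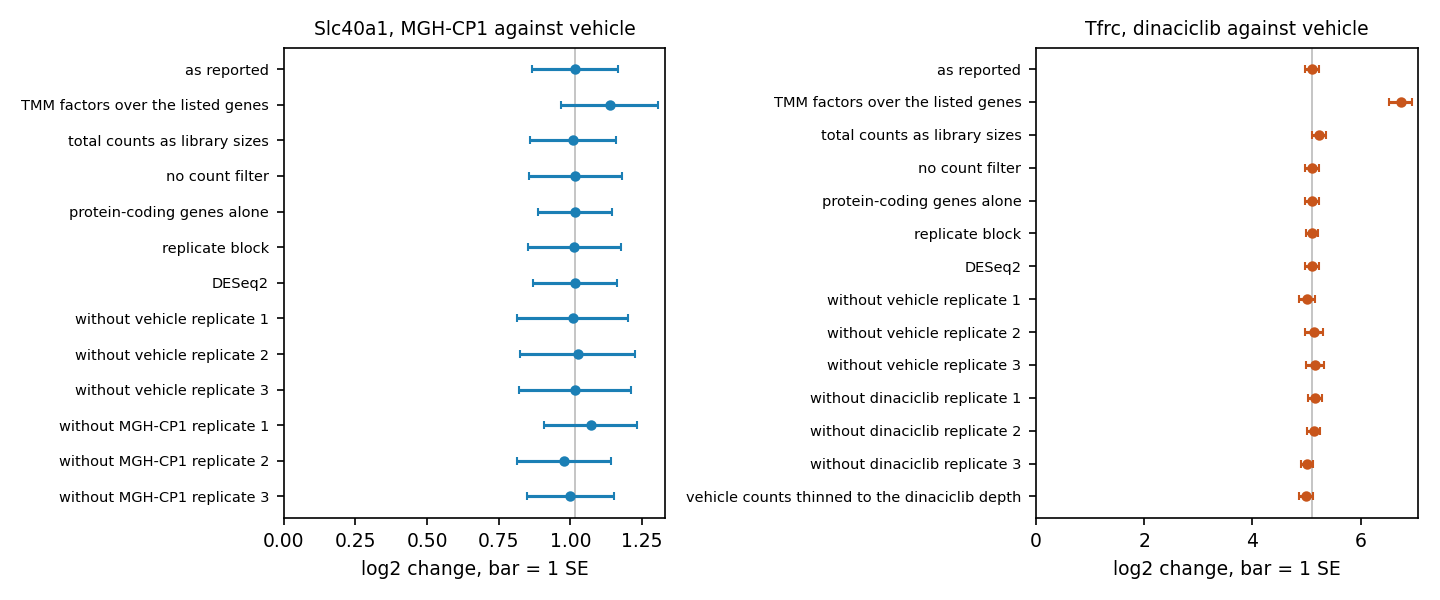
Log2 change on the x axis with a bar of 1 SE for Slc40a1 (left) and Tfrc (right) as reported and under each alternative setting named on the y axis. Leaving out any 1 library kept Slc40a1 between 0.98 and 1.07 and Tfrc between 5.01 and 5.16, and TMM factors gave the highest value for both.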

How the data were processed

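The submitters' processing notes list DESeq2 1.20.0, featureCounts 1.5.0-p3, HISAT2 2.0.5 and fastp. A genome build is not given in the sources used here. GRCm38 was inferred, since GENCODE M21 holds all 471 and 251 gene identifiers and gives identical spans for 98.5% and 96.4% of them. Per the file headers the authors deposited raw counts, FPKM, gene lengths, log2 fold changes and p-values. A further deposited signal is the count over a size factor, 1 for each library, with the authors' group means. Library totals were computed from count, FPKM and length; they came out the same for 100% of values but not as whole numbers, so they may have been scaled.

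Each table was fitted alone with edgeR 4.0.16 in R 4.3.3 (quasi-likelihood test, two-sided, no covariate, filterByExpr with a minimum count of 10) on the authors' size factors, with Benjamini-Hochberg adjustment and a threshold of 0.05. SE is the log2 change divided by the root of F. The spread was estimated on picked genes only, so adjusted p-values are no error rates over the genome. The test was checked on simulated data. Replicate pairs differed by more than sampling noise (chi-square 5.53 to 89.5 times its degrees of freedom). The genes, lists and tests were chosen with earlier results of these data known. Named genes are the pair itself, genes of the lists in either table, the 5 genes most alike per table (by distance, with a mean no lower than the median gene and a regular symbol), neighbours in order of change and level, and genes whose symbol starts with Slc. Alternatives were TMM, total counts, DESeq2 1.42.0, no filter, protein-coding genes alone, a replicate block, thinning, leaving out each replicate, and an exact permutation test on log2(FPKM + 1). Promoter sequence was not used here.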

Additional observations from a re-analysis of the deposited data

How the results depend on the processing

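Slc40a1 and Tfrc were higher under every alternative run, and both passed the edgeR or DESeq2 test in each. Both genes were listed for change in these same libraries, so passing again is no independent evidence of change. The largest adjusted p was 0.00125 for Slc40a1 and 8.59e-06 for Tfrc. The exact permutation test on log2(FPKM + 1) gave differences of 0.92 and 4.91 with p = 0.1 for each, the smallest that 3 against 3 libraries allow. Leaving out 1 library gave 0.98 to 1.07 for Slc40a1 and 5.01 to 5.16 for Tfrc, 365 to 385 called genes in the MGH-CP1 table and 240 to 249 in the dinaciclib table, and a vehicle ratio of 0.513 to 0.564. With protein-coding genes alone 187 genes were called in the MGH-CP1 table in place of 355, by construction. The vehicle ratio of Tfrc to Slc40a1 was 0.366 with no length correction and 0.252 per base of the principal transcript. With TMM factors Arnt (0.37), Stat5b (0.26), Bub1b (0.17), Fbxw7 (0.34) and Kdm5a (0.32) changed sign, because those factors raise the whole dinaciclib table. Deviations of same-numbered libraries correlated at -0.13 to 0.05, beside -0.13 to 0.11 for differently numbered ones. No pairing was seen, but 3 libraries per group cannot exclude one. With a replicate block the log2 changes were 1.01 for Slc40a1 and 5.10 for Tfrc, with 355 and 240 called genes. Depth did not limit either gene, whose lowest count was 662.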

Other observations

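Enzymes that need iron as a cofactor were looked up in lists added after the fits. Of 53 oxygenases that use iron and 2-oxoglutarate, 3 were in the dinaciclib table and 3 fell, all of them histone demethylase genes, beside 75% of all tested genes lower. Kdm6a stood at 346, 347 and 334 normalised counts in vehicle and at 29.6, 31.4 and 22.9 with dinaciclib. Kdm5c stood at 1624 ± 45.3 against 229 ± 113 and Kdm5a at 739 ± 13.1 against 302 ± 86.2 (SD, n = 3), and Kdm5a changed sign with TMM factors. Of 21 enzymes of DNA, RNA and nucleotides with an iron-sulfur cluster, 1 was in each table. The repair helicase gene Ercc2 was lower with dinaciclib, at 7.40, 28.5 and 0 against 116 ± 9.45 in vehicle (log2 change -3.15, or -5.04 without dinaciclib replicate 2), and the antiviral gene Rsad2 was lower with MGH-CP1, at 41.4 ± 8.37 against 111 ± 13.9 (SD, n = 3).

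Besides Tfrc and Slc40a1, 8 listed genes held a match to the hairpin pattern in a UTR, each with 1 match. With MGH-CP1, Zbtb20 (log2 change 1.07), Kif21a (1.09) and Gfi1 (1.01) were higher, and Serpina3g (-1.74) and Gprin2 (-1.11) lower. With dinaciclib, Kdm5c (-2.81), Cant1 (-4.18) and Malt1 (-3.05) were lower. Of all tested genes, 49.3% were higher and 50.7% lower with MGH-CP1, and 75% were lower with dinaciclib. These directions are near that background. Zbtb20 is also the gene with the profile closest to that of Slc40a1; its match lies in the 3′ UTR and that of Slc40a1 in the 5′ UTR. A match stood in the 3′ UTR of 1.49% of the MGH-CP1 genes and 1.20% of the dinaciclib genes with such a UTR, and in the 5′ UTR of 1.57% and 0.403%, counts too small to compare with the shares over all genes.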
